A study of Mus musculus with 6 samples.

Results

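The cell cycle and proliferation genes described here are 45 genes, taken from a fixed list of symbols, that encode cyclins, cyclin-dependent kinases (CDKs), replication factors, mitotic kinases and parts of the spindle and kinetochore. They were measured in olfactory epithelium, the sheet at the back of the nasal cavity that holds sensory neurons, their dividing progenitors, and supporting and gland cells. Of the 18193 genes with a probe set of their own, 44 were on the list, and where a gene had several probe sets the one brightest on average was read. Of these, 41 were bright enough to be tested, among 12703 genes tested in all. Ccnb1 had no probe set under its symbol alone and is not analysed here. Foxm1, Cdc6 and Tyms lay under the limit for dim genes, a mean log2 intensity of 5.19.

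The arrays came from 3 mutant and 3 wild-type mouse pups, 1 array per pup. All pups were 1 day old and had a mixed background of the strains C57Black6/J and 129SvJ, and the tissue was olfactory epithelium in both groups. The series was made to find targets of KLF7, a zinc finger protein that regulates transcription in neurons, according to its title. The labels do not name the allele that the mutant pups carry. Total RNA was amplified and biotin-labelled before hybridisation. All levels below are log2 of the quantile normalised intensity of 1 probe set, and all differences are mutant minus wild type on that scale.

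Cells pass from growth (G1 phase) through DNA replication (S phase) and a further gap (G2 phase) to mitosis. D-type cyclins with CDK4 and CDK6 start the passage, E2F factors then switch on genes for replication, and CDK1 with A- and B-type cyclins drives mitosis until the anaphase-promoting complex destroys the cyclins. In the olfactory epithelium, globose basal cells do most of the dividing and renew the sensory neurons throughout life, while horizontal basal cells are largely a reserve. Work in mice has linked KLF7 to CDK inhibitor genes and to the exit of neuronal precursors from division.

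The arrays differed in more than genotype. Total deposited intensity ran from 10064207 to 14439788 and array medians from 38.21 to 61.59, and on the first principal component of the genes tested mutant array 3 (49.5) and wild-type array 3 (98.2) stood apart from the other 4 arrays, which lay between -42.4 and -32.3. Klf7 itself was at 7.37, 8.05 and 6.21 on mutant arrays 1, 2 and 3, against 9.76, 8.71 and 9.62 on wild-type arrays 1, 2 and 3, so the groups did not overlap. Its difference was -2.15 (SE 0.52, 4.44-fold lower), with a limma unadjusted p = 0.00165 and adjusted p = 1 over all genes. Markers of mature olfactory sensory neurons were present, with 12 of 15 measured and all 12 above the dim limit. Their summed linear intensity was 5313 to 6901 on mutant arrays and 8594 to 10364 on wild-type arrays. Markers of squamous epithelium, which a dissection can carry along, summed to 363 to 2959 on mutant arrays and 559 to 6805 on wild-type arrays, highest on mutant arrays 1 and 3 and wild-type array 2.

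No cell cycle gene passed the test of a difference between mutant and wild-type epithelium. All 41 genes had adjusted p = 1 (limma). The call rate over all 12703 genes was 0%. The median difference of the 41 genes was -0.09, against -0.02 for all genes tested, with 24 lower and 17 higher in the mutant. The 24 are 58.5%, and 52.6% of all genes tested were lower. Stil was the exception by the unadjusted test, as 1 of 41 genes (2.44%) at limma p under 0.05, where 0.598% of all genes lay (0.157% higher and 0.441% lower in the mutant). It was also the 1 gene of the 41 whose groups did not overlap, and 2.86% of all genes had groups that did not (0.905% higher and 1.95% lower in the mutant). With 1 gene, neither share sets the list apart from the other genes. In RNA of a whole epithelium, fewer dividing cells and less RNA per dividing cell cannot be told apart.

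**Figure D1:**
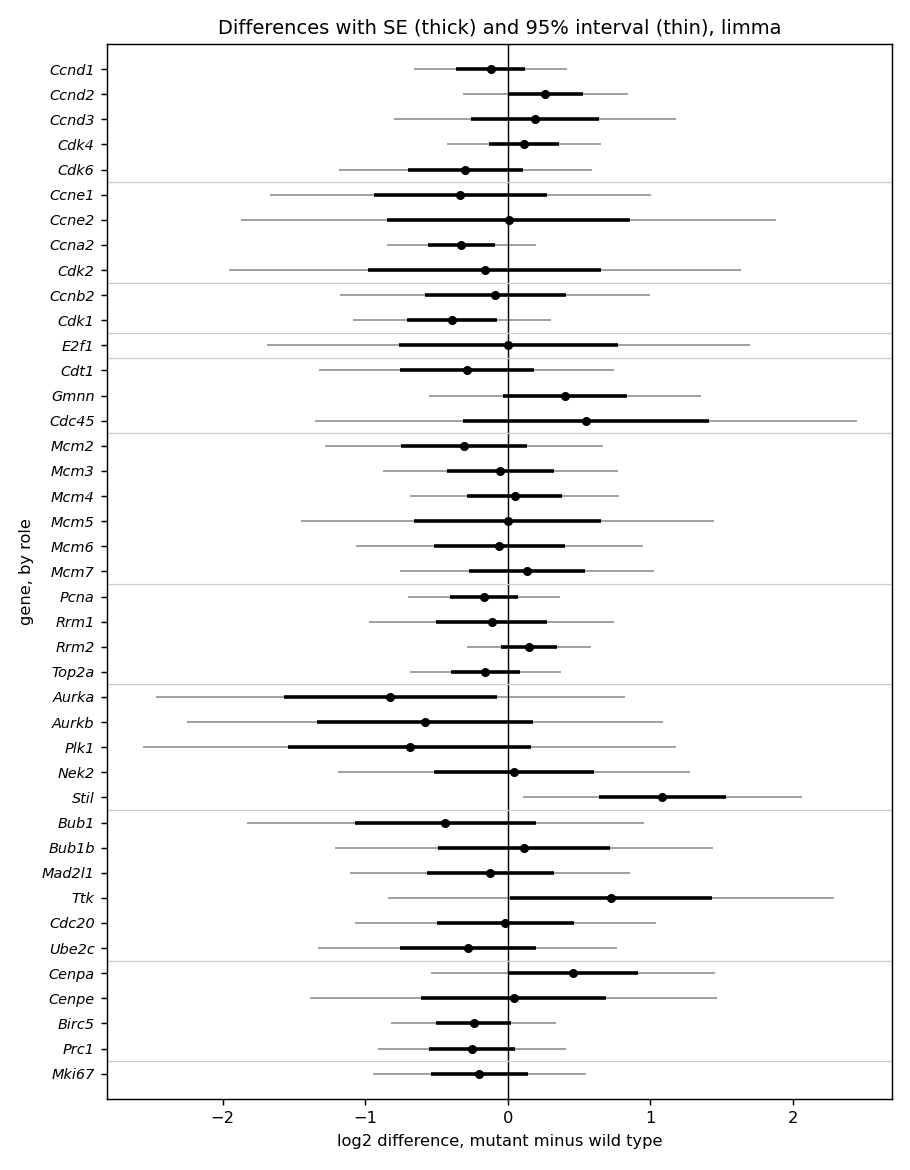
The log2 difference, mutant minus wild type (horizontal axis), of the 41 cell cycle genes tested (vertical axis, grouped by role), with the SE as a thick line and the 95% interval as a thin line (limma). The interval of Stil, 0.10 to 2.06, is the single one of the 41 that leaves out 0.

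How much could have been missed differs from gene to gene. For 13 of the 41 genes the 95% interval of the difference (limma) lay within 1 log2 unit of 0, that is within a 2-fold change either way, and for the other 28 it reached past that. Rrm2 had the narrowest error (SE 0.20) and Cdc45 the widest (SE 0.86). Differences above 0.5 in size were seen in 6 of the 41 genes (14.6%) and in 16.1% of all genes tested. These 6 were Aurka, Plk1 and Aurkb on the lower side and Cdc45, Ttk and Stil on the higher side.

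Promoter sequence is shown for the 4 genes with the smallest unadjusted p among those with an entry in the RefSeq promoter table (37 of the 45). These are Stil, Cdk1, Aurka and Ttk. Each line gives the 250 bases before the annotated start of the gene, 5′ to 3′ on the gene's own strand, in build GRCm38.p6. The Stil window is chr4:114999868-115000117 on the plus strand, that of Cdk1 chr10:69352913-69353162 on the minus strand, that of Aurka chr2:172370571-172370820 on the minus strand, and that of Ttk chr9:83834439-83834688 on the plus strand. Capitals mark matches, on either strand, to letters of 5 promoter elements. These are the CCAAT box (CCAAT), bound by NF-Y, the cell cycle homology region or CHR (TTTGAA), through which many mitotic genes are repressed outside G2 phase and mitosis, the E2F site (TTTCCCGC or TTTGGCGC), a KLF-type site (CCACACCC) and the GC box (CCCCGCCC).
Stil: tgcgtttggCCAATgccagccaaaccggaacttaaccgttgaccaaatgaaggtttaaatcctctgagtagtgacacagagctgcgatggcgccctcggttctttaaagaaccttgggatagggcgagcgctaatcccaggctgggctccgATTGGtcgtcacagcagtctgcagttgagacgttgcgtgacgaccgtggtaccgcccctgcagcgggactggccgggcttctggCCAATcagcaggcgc
Cdk1: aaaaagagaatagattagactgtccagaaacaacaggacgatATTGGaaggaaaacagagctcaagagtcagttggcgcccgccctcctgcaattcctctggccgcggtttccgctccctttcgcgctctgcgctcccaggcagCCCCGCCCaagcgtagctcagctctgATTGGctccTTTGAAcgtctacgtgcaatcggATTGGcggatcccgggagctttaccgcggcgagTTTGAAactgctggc
Aurka: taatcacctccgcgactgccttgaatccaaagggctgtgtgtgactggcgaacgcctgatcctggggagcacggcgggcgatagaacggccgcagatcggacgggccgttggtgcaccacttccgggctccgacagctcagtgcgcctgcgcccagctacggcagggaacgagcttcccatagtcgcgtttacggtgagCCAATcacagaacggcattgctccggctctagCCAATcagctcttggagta
Ttk: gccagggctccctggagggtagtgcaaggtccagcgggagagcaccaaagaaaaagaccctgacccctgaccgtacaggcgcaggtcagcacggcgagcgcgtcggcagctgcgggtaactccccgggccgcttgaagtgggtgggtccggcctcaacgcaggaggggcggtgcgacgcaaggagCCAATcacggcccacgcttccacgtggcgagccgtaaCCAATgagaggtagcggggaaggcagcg

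All 4 windows hold the CCAAT letters, and no matches within them overlap. The Stil window holds 3 CCAAT matches, the nearest starting 15 bases before the gene's start, and those of Aurka and Ttk hold 2 each. Cdk1 has 3 CCAAT matches, 2 matches to the CHR letters that start 71 and 15 bases before its start, and 1 GC box. Over the 37 promoters of listed genes, CCAAT was found in 27 (73%), against 34.5% of 27025 mouse promoters of the same length. The E2F letters were found as TTTCCCGC in 3 (Cdc6, Cdk2 and Mcm7, 8.11% against 0.929%) and as TTTGGCGC in 2 (Mcm5 and Mcm6, 5.41% against 0.437%). CHR letters stood in 8 (Ccnb2, Cdc20, Cdc45, Cdk1, Mcm2, Mki67, Top2a and Ube2c, 21.6% against 16.3%). KLF-type letters stood in 4 (Cdk4, Prc1, Rrm1 and Tyms, 10.8% against 3.19%), and GC box letters in 14 (37.8% against 16.3%). These matches describe the letters only, and promoters of all kinds of genes, also noncoding ones, are in the comparison.

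Of the D-type cyclins and their kinases, which start the passage out of G1 phase, 2 of 5 were lower and 3 higher, with a median difference of 0.12. The 95% intervals of Ccnd3 (-0.80 to 1.18) and Cdk6 (-1.19 to 0.59) reached past a 2-fold change. Ccnd1 (cyclin D1) was at 11.02, 10.97 and 10.47 on mutant arrays and 11.29, 10.89 and 10.65 on wild-type arrays. Its groups overlapped, with a difference of -0.12 (SE 0.24). Ccnd2 (cyclin D2) read 11.50, 10.95 and 11.04 on mutant arrays, against 10.46, 11.39 and 10.85 on wild-type arrays. Wild-type array 1 was the low one here and wild-type array 2 lay among the mutants, for a difference of 0.26 (SE 0.26). Ccnd3 (cyclin D3) read 8.29, 8.35 and 7.54 on mutant arrays and 7.91, 8.35 and 7.36 on wild-type arrays. Both groups spanned nearly the same range, with a difference of 0.19 (SE 0.45). Of the partner kinases, Cdk6 was at 8.13, 7.52 and 7.86 on mutant arrays and 8.21, 7.90 and 8.29 on wild-type arrays, a difference of -0.30 (SE 0.40). A dimmer Cdk6 probe set, also above the dim limit, gave the opposite sign, 0.38. Cdk4 differed by 0.12 (SE 0.25).

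Probe sets of the D-type cyclins and Cdk4 gave unlike values. Ccnd2 has 7 probe sets, all above the dim limit, whose differences ran from -0.12 to 0.93, with 6 of them above 0. Cdk4 has 3, with differences of 0.12, 0.49 and 1.46, and the largest came from a probe set that read 9.84, 9.59 and 9.54 on mutant arrays and 9.39, 9.70 and 5.52 on wild-type arrays. Wild-type array 3 was the low one there. A second Ccnd3 probe set, with a difference of 1.24, was at 6.29, 5.85 and 6.23 on mutant arrays and 5.62, 5.28 and 3.77 on wild-type arrays. Its wild-type mean, 4.89, was under the dim limit and its mutant mean, 6.12, above it, so it passed through the mutant values alone, while the brighter probe set differed by 0.19. With the mean of all probe sets per gene the median difference of the 5 genes was 0.32, and without wild-type array 3 it was -0.07.

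Inhibitors of these kinases went both ways. Cdkn1b, which encodes p27, was at 11.66, 11.88 and 11.75 on mutant arrays and 11.68, 11.03 and 11.19 on wild-type arrays. Mutant array 1 lay just under wild-type array 1, so the groups overlapped, with a difference of 0.47 (SE 0.20), limma unadjusted p = 0.0407 and adjusted p = 1. Cdkn1a, which encodes p21, had a difference of -0.53 (SE 0.50), with mutant array 2 at 7.53 and the other 5 arrays between 8.75 and 9.60. Cdkn1c, which encodes p57, differed by -0.09 (SE 0.56).

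Among the cyclins of S phase, cyclin A2 came nearest to a separation. Ccna2, which pairs with CDK2 in S phase and with CDK1 later, was at 10.01, 10.16 and 10.40 on mutant arrays and 10.25, 10.62 and 10.67 on wild-type arrays. Only wild-type array 1 lay within the mutant range, and each mutant array was lower than the wild-type array of its number. The difference was -0.32 (SE 0.24, limma unadjusted p = 0.199), and its second probe set gave -0.42. Ccne1 (cyclin E1) was at 5.54, 6.42 and 6.22 on mutant arrays and 6.23, 6.19 and 6.75 on wild-type arrays, a difference of -0.33 (SE 0.61). Ccne2 and Cdk2 varied widely within both groups, Ccne2 from 4.82 to 6.67 in mutants and 4.54 to 7.32 in wild type. Their differences were 0.01 (SE 0.85) and -0.16 (SE 0.82). For Cdk2 a second, dimmer probe set gave -1.46. That probe set read 5.48, 3.65 and 4.97 on mutant arrays and 3.65, 7.62 and 7.22 on wild-type arrays. The value 3.65, seen in both groups, is the floor set for low values. The mutant mean of this probe set, 4.70, was under the dim limit and its wild-type mean, 6.16, above it. The probe set thus passed the limit through its wild-type values alone.

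Of the mitotic pair, Cdk1, the kinase that drives entry into mitosis, was at 8.82, 9.05 and 9.23 on mutant arrays and 9.65, 9.01 and 9.61 on wild-type arrays. Wild-type array 2 sat with the mutants and the other wild-type arrays above them, for a difference of -0.39 (SE 0.32). Ccnb2 (cyclin B2) was at 7.43, 6.81 and 7.38 on mutant arrays and 7.75, 7.21 and 6.92 on wild-type arrays, a difference of -0.09 (SE 0.49).

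The transcription factors upstream of these genes gave little signal. E2f1, which activates genes of S phase, was at 6.88, 6.02 and 5.19 on mutant arrays and 6.68, 6.61 and 4.77 on wild-type arrays. The arrays numbered 3 were the lowest in both groups, and the difference was 0.00 (SE 0.77). Foxm1, which activates mitotic genes, was dim, from 3.65 to 5.76 in mutants and 4.48 to 5.61 in wild type, where 3.65 is the floor set for low values.

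Of the genes that license replication origins before S phase or fire them, 3 were tested, with 1 lower and 2 higher. Gmnn (geminin), which blocks licensing by binding CDT1, was at 8.74, 9.19 and 8.41 on mutant arrays and 8.87, 8.70 and 7.56 on wild-type arrays. Cdc45, a partner of the helicase at firing origins, was at 6.58, 6.68 and 5.32 on mutant arrays and 6.65, 6.44 and 3.84 on wild-type arrays. In both genes wild-type array 3 was the lowest of the 6 and the other wild-type arrays lay within the mutant range. The differences were 0.40 (SE 0.43) for Gmnn and 0.55 (SE 0.86) for Cdc45, and -0.003 and -0.35 without that array. Cdt1, the licensing factor, differed by -0.29 (SE 0.47), with wild-type array 2 the highest of the 6 at 8.62. Cdc6, which loads the helicase, was dim, at 3.65 to 5.63 in mutants and 3.65 to 6.37 in wild type.

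The MCM proteins form the ring-shaped helicase that unwinds DNA in S phase, and their 6 genes had a median difference of -0.03, with 3 lower and 3 higher. Mcm2 was at 7.18, 7.74 and 7.39 on mutant arrays and 7.92, 7.91 and 7.40 on wild-type arrays, a difference of -0.31 (SE 0.44). It was lower in each numbered pair, with pair differences of -0.74, -0.17 and -0.008. Mcm7 was at 8.55, 8.69 and 8.56 on mutant arrays and 8.61, 9.03 and 7.75 on wild-type arrays, a difference of 0.14 (SE 0.41). The tight mutant values thus lay within a wide wild-type range. Differences of Mcm3, Mcm4, Mcm5 and Mcm6 lay between -0.06 and 0.05. Mcm5 was spread from 6.19 to 9.05 among wild-type arrays and from 7.54 to 8.17 among mutants. All 6 genes were read by probe sets whose names end in s_at or x_at. Other probe sets above the dim limit gave -0.59 for Mcm2 and -0.02 for Mcm4. They gave -0.50 and -0.19 for Mcm5, and -0.35 and -0.11 for Mcm6. For Mcm3 they gave 0.05, -0.71 and 0.02, and for Mcm7 0.14, -0.21 and -0.50.

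Enzymes of DNA synthesis had the tightest values. Pcna, the sliding clamp of DNA polymerase, was at 10.42, 10.57 and 10.05 on mutant arrays and 10.70, 10.56 and 10.28 on wild-type arrays, a difference of -0.17 (SE 0.24). Rrm2, the regulated subunit of ribonucleotide reductase, was at 11.17, 11.76 and 11.53 on mutant arrays and 11.47, 11.30 and 11.25 on wild-type arrays, a difference of 0.15 (SE 0.20). Top2a, the topoisomerase that untangles DNA before chromosomes part, was at 10.56, 10.51 and 10.50 on mutant arrays and 11.05, 10.27 and 10.72 on wild-type arrays. The mutant values were nearly the same and lay inside the wild-type range, for a difference of -0.16 (SE 0.24). Rrm1, the large subunit of the reductase, differed by -0.11 (SE 0.39). A dimmer probe set of Rrm2 gave -0.85. Tyms (thymidylate synthase) was too dim on average to be tested, at most 5.23 in mutants and 4.26 in wild type.

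Mitotic kinases and centrosome proteins included Stil, with the highest difference of the 41 genes, and Aurka, with the lowest. Stil, a protein needed to build new centrioles, was at 8.38, 8.41 and 9.58 on mutant arrays and 7.99, 7.79 and 7.35 on wild-type arrays. All mutant arrays were above all wild-type arrays, and arrays numbered 3 were the farthest apart. The difference was 1.08 (SE 0.44, 2.12-fold, limma unadjusted p = 0.0331 and adjusted p = 1), higher in 3 of 3 numbered pairs, by 0.39, 0.62 and 2.23. Its exact two-sided permutation p was 0.1, the smallest that 3 arrays against 3 can give. Without mutant array 3 the difference was 0.69 (limma unadjusted p = 0.188). Leaving out wild-type array 3 gave 0.90 (limma unadjusted p = 0.0676), and leaving out both arrays numbered 3 gave 0.51 (limma unadjusted p = 0.261). Stil was read by a single probe set, so no second reading of the gene is at hand.

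Aurka (Aurora A), the kinase that matures centrosomes, was at 5.70, 4.88 and 4.67 on mutant arrays and 6.76, 5.58 and 5.38 on wild-type arrays. Each mutant array was lower than the wild-type array of its number (pair differences -1.07, -0.70 and -0.71), but mutant array 1 lay above wild-type arrays 2 and 3. The difference was -0.82 (SE 0.75, limma unadjusted p = 0.294). Aurkb (Aurora B), the kinase of the chromosomal passenger complex, differed by -0.58 (SE 0.76) and Plk1, a kinase of mitotic entry and exit, by -0.69 (SE 0.85), with mutant array 2 of Plk1 at the floor. Aurka, Aurkb and Plk1 had means of 5.08, 5.28 and 4.88 in mutants and 5.91, 5.86 and 5.57 in wild type. Aurka and Plk1 were thus under the dim limit of 5.19 in mutants and entered the test through their wild-type values. Nek2, a kinase that separates centrosomes, differed by 0.04 (SE 0.56), with both arrays numbered 3 above the others.

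Genes of the spindle checkpoint, which holds cells in metaphase until all chromosomes are attached, and of the anaphase-promoting complex had a median difference of -0.07, with 4 of 6 lower. Ttk (MPS1), the kinase that starts the checkpoint, was at 5.90, 6.77 and 6.89 on mutant arrays and 6.39, 6.38 and 4.61 on wild-type arrays. Its difference of 0.72 (SE 0.71) became 0.13 without wild-type array 3, and -0.06 when mutant array 3 was dropped as well. Bub1, a checkpoint kinase at kinetochores, was at 6.01, 6.23 and 6.21 on mutant arrays and 7.33, 5.67 and 6.76 on wild-type arrays. The mutant arrays lay together inside a wild-type range that was over 1 log2 unit wide, and the difference was -0.44 (SE 0.63). Ube2c and Cdc20, which work with the anaphase-promoting complex, differed by -0.28 (SE 0.48) and -0.02 (SE 0.48), and the checkpoint proteins Mad2l1 and Bub1b by -0.12 (SE 0.45) and 0.11 (SE 0.60). Without wild-type array 2, Ube2c also came under an unadjusted p of 0.05 (limma), as 1 of 219 such genes among the 12703 tested. With all arrays 76 genes lay under 0.05, and Ube2c had a limma unadjusted p = 0.567.

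At kinetochores and the spindle midzone 2 of 4 genes were lower. Cenpa, the histone variant that marks centromeres, was at 7.80, 7.93 and 8.30 on mutant arrays and 8.04, 7.65 and 6.96 on wild-type arrays, a difference of 0.46 (SE 0.45). Its other probe sets above the limit gave -0.50 and -0.13. Birc5 (survivin), of the chromosomal passenger complex, was at 9.93, 10.36 and 10.30 on mutant arrays and 10.51, 10.03 and 10.76 on wild-type arrays, a difference of -0.24 (SE 0.26). The groups of both genes overlapped. For Prc1, which bundles midzone microtubules, the difference was -0.25 (SE 0.30), and wild-type array 1 stood at 10.79 and the other 5 arrays between 9.75 and 10.16. The kinetochore motor Cenpe differed by 0.04 (SE 0.65).

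Mki67, the antigen by which dividing cells are usually counted, was at 8.70, 9.47 and 8.89 on mutant arrays and 9.06, 9.02 and 9.58 on wild-type arrays. Mutant array 2 and wild-type array 3 were the high ones, and the difference was -0.20 (SE 0.34, 95% interval -0.94 to 0.55).

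**Figure D2:**
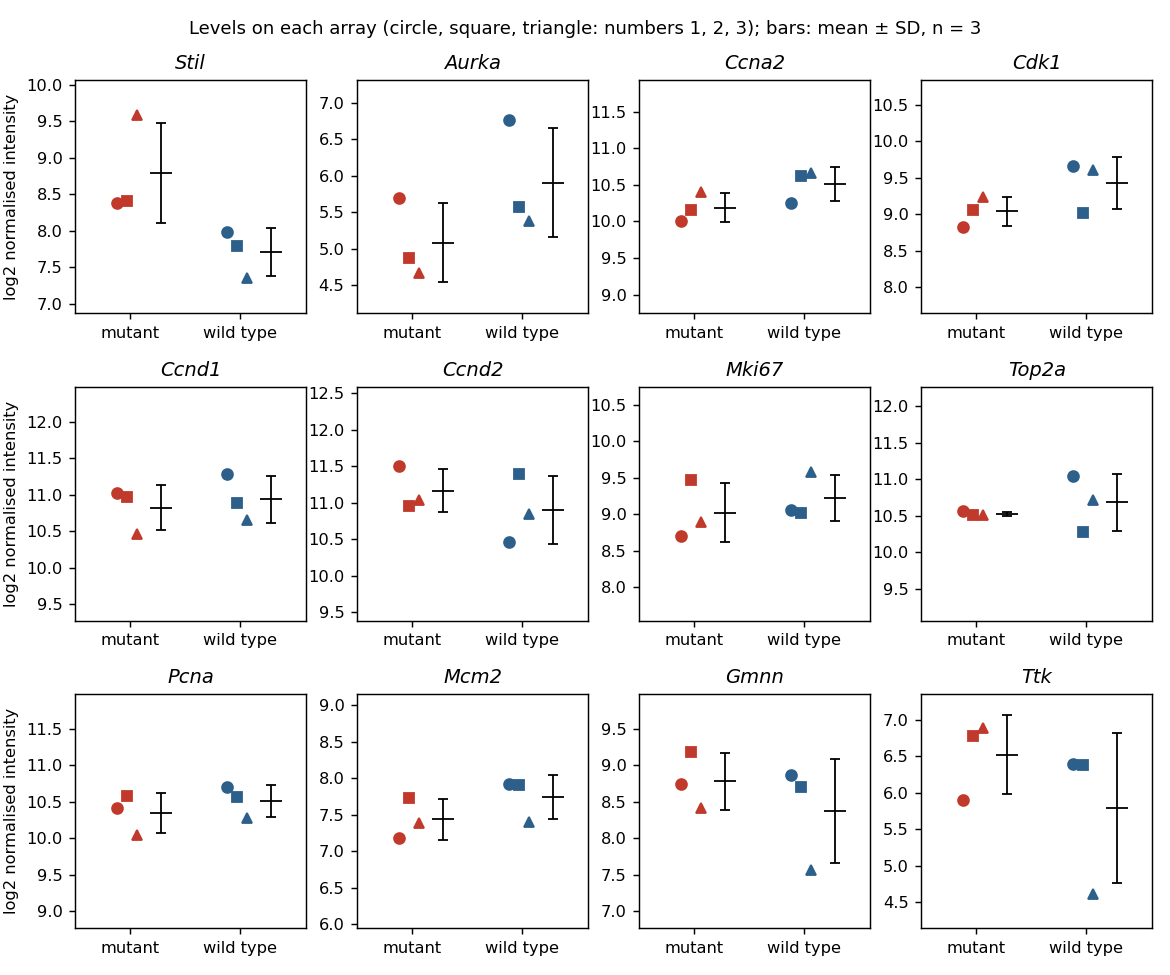
Log2 normalised intensity (vertical axes, all spanning the same number of log2 units) of 12 cell cycle genes on mutant (red) and wild-type (blue) arrays, with circles, squares and triangles for arrays numbered 1, 2 and 3 and bars for the mean ± SD (n = 3 each). Stil is the panel in which the groups do not overlap, and wild-type array 3 is the lowest point for Gmnn and Ttk.

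The arrays of a genotype differed from each other in which cell cycle genes were high. Wild-type array 1 held the highest value of the 6 for 13 of the 41 genes (31.7%), where 17.9% of all genes tested peaked on that array. Wild-type array 3 held the lowest for 13 (31.7%, against 28.1% of all genes). Genes of mitosis (the mitotic cyclins, kinases, checkpoint and kinetochore groups with Top2a) peaked on wild-type array 1 in 8 of 18 cases. Their median deviation from the gene mean there was 0.34, and it was -0.25 on wild-type array 2. Genes of replication peaked on wild-type array 1 in 4 of 16 cases and on wild-type array 2 in 5, with median deviations of 0.10 and 0.19. Within them, the G1/S and S phase cyclins with Cdk2 had a median deviation of 0.64 on wild-type array 1. There 2 of these 4 genes peaked. A wider list, given below, did not repeat the gap between mitosis and replication on that array.

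**Figure D3:**
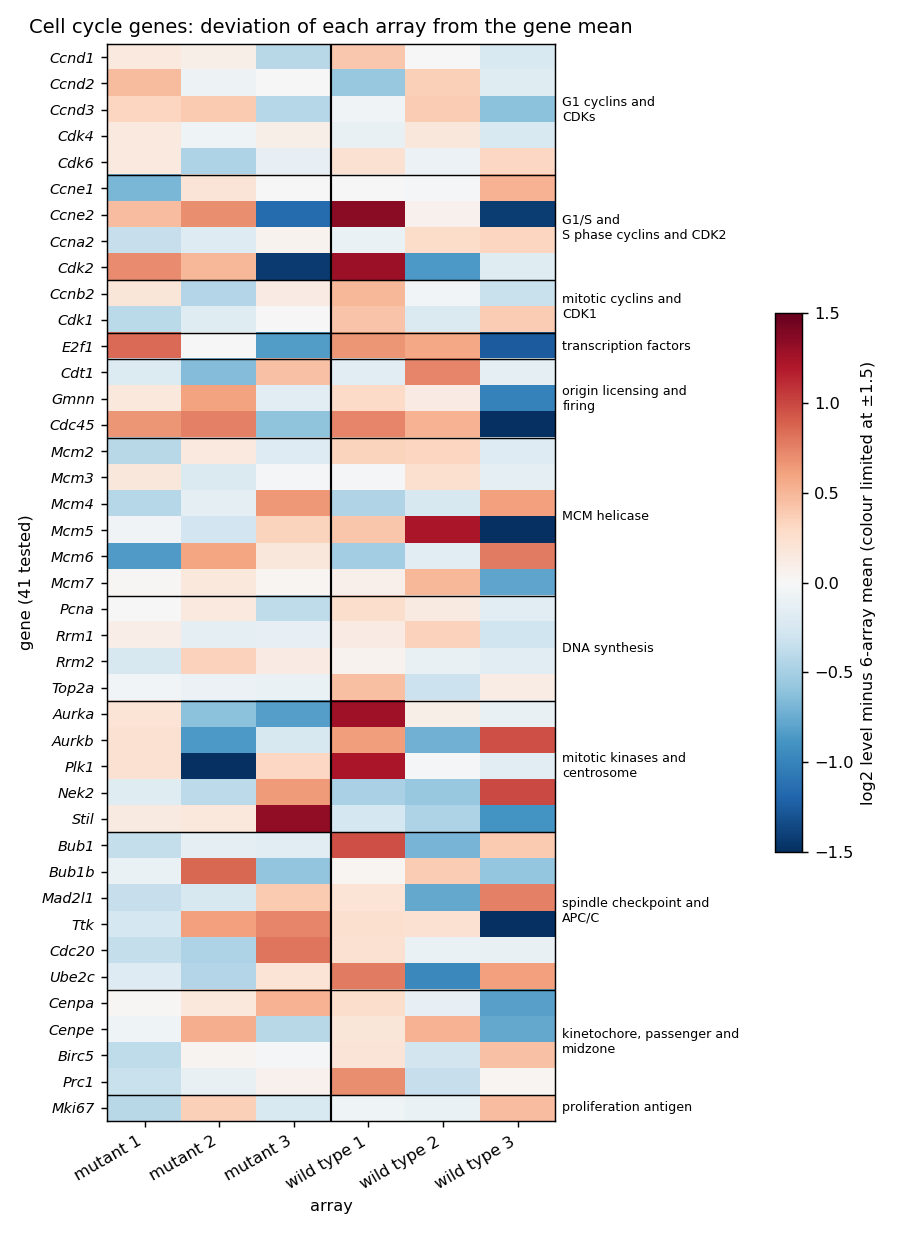
Deviation of each array from the gene's mean over the 6 arrays (colour, log2 units, limited at ±1.5) for the 41 cell cycle genes tested (rows, grouped by role), with mutant arrays on the left and wild-type arrays on the right. Red cells gather in the column of wild-type array 1, mainly in the mitotic groups and the G1/S and S phase cyclins. Blue cells in the column of wild-type array 3 include genes of replication and of the kinetochore group.

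The numbered pairs of arrays did not repeat one another. In the pair numbered 1, 33 of the 41 genes were lower in the mutant and the median difference was -0.29, while 47.4% of all genes were lower there and their median was 0.03. In the pair numbered 2, 16 of 41 were lower with a median of 0.09, against 57.8% and -0.15 for all genes. In the pair numbered 3, 19 of 41 were lower with a median of 0.04, against 49% and 0.01. The genes lower in each of the 3 pairs were Cdk6, Ccna2, Mcm2, Aurka and Aurkb, which is 12.2% of 41, against 9.46% of all genes. Those higher in each were Ccnd3, Mcm4 and Stil, 7.32% against 6.31%. Without wild-type array 1 the median over the 41 genes was 0.03, with 19 lower. It was -0.22 with 31 lower without wild-type array 3, and -0.15 with 25 lower without mutant array 3.

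**Figure D4:**
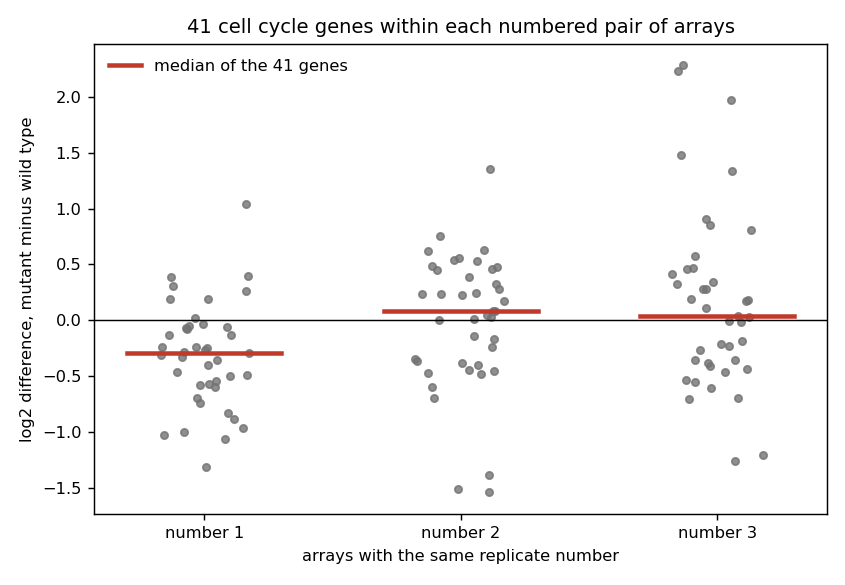
The log2 difference, mutant minus wild type (vertical axis), of the 41 cell cycle genes (grey points) within arrays of the same replicate number (horizontal axis), with the median as a red line. The median is below 0 for number 1 (-0.29) and slightly above it for numbers 2 (0.09) and 3 (0.04).

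A wider list of 87 other genes of replication, mitosis and checkpoint control was set beside them. Of 80 tested, 58 were lower and 22 higher in the mutant (72.5% lower, against 52.6% of all genes), with a median difference of -0.14. None passed the test (limma, smallest unadjusted p = 0.178), and 0 lay under an unadjusted p of 0.05, against 0.598% of all genes. In all 3 numbered pairs 13 of the 80 were lower (16.2%, against 9.46% of all genes) and 1 was higher (1.25%, against 6.31%). The smallest p belonged to Kif4, a chromosome-bound kinesin (difference -1.08, SE 0.75), Pole, the leading-strand polymerase (-0.87, SE 0.69), and Ncapd2, a condensin subunit (0.95, SE 0.78). They were followed by Nusap1, a spindle protein (-0.36, SE 0.32), Anln, a protein of the cleavage furrow (-0.89, SE 0.79), and Zwint, a kinetochore protein (-0.30, SE 0.26). The mean of Kif4 was 4.84 in mutants, under the dim limit of 5.19, and 5.92 in wild type. Kif4 thus entered the test through its wild-type values. For Ncapd2, wild-type array 3 was the low one, at 4.65. Wild-type arrays 1 and 2 were at 7.95 and 7.54, and the mutant mean was 7.67. Ncaph, another condensin subunit, was the 1 gene of the 80 (1.25%, against 2.86% of all genes) with groups that did not overlap, with 6.17 on the highest mutant array and 6.29 on the lowest wild-type array (difference -0.62, SE 0.58). Wild-type array 1 was the highest for 29 of the 80 (36.2%), and without it 43 of 80 were lower, with a median of -0.03. Replication genes of this list peaked on wild-type array 1 in 8 of 24 cases and mitosis genes in 11 of 36. Their median deviations there were 0.33 and 0.34.

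Markers of the cells that divide in this tissue and of other cells were set beside these values. Of 10 markers of globose basal cells and neuronal precursors, 8 were tested, with 6 lower and a median difference of -0.04. Over its 9 measured markers, dim Lgr5 included, the list had a summed intensity of 8582 to 10114 on mutant arrays and 8433 to 10426 on wild-type arrays. Of its proneural transcription factors, Neurog1 differed by -0.79 (SE 1.03) and Neurod1 by 0.32 (SE 0.23). Markers of mature sensory neurons, which no longer divide, had a median deviation of 0.55 on wild-type array 1, the array on which the most cell cycle genes (13 of 41) peaked. Markers of sustentacular cells and Bowman glands (0.46, highest there for 5 of 9) and of immature sensory neurons (0.40, highest there for 4 of 10) were also high on that array. Those of globose basal cells and neuronal precursors were not (-0.06, highest there for 2 of 8 and lowest for 2 of 8). Horizontal basal cell markers were not high there either (-0.34). Mature neuron markers had a median difference of -0.84 with 10 of 12 lower. The part of these cells in the cell cycle values was not tested. Horizontal basal cell markers had a median difference of 0.36, with 6 of 7 tested higher. By numbered pair the median was 1.56, -1.86 and 1.18, with 5 of 7 lower in the pair numbered 2. Their median deviations were above 0 on mutant arrays 1 and 3 and wild-type array 2 (0.99, 0.23 and 0.81). Those of squamous markers were also above 0 on these arrays (1.28, 0.83 and 2.77). The 8 measured horizontal basal markers summed to 5820 to 8634 on mutant arrays and 3884 to 7986 on wild-type arrays. Of 8 markers of neutrophils and marrow precursors 4 were above the dim limit, and Ngp, Mpo, Elane and Prtn3 were at the floor on at least 1 array. This list summed to 4093 to 5183 on mutant arrays and 3750 to 4806 on wild-type arrays. Erythroid markers summed to 107 to 190 on mutant arrays and 74 to 249 on wild-type arrays, with 1 of 4 measured markers above the limit.

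Probe sets of the same gene often disagreed. The 44 genes had 106 probe sets, of which 81 were above the dim limit. Of the 25 genes with more than 1 such probe set, 11 had differences of both signs. The median spread among probe sets of a gene was 0.50 log2 units and the largest 1.34, for Cdk4, while the median size of the differences of the 41 genes was 0.19. Probe sets whose names end in s_at or x_at can also bind other transcripts, and Mcm2, Mcm4, Cdk4 and Rrm2 were among the genes read by such probe sets.

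**Figure D5:**
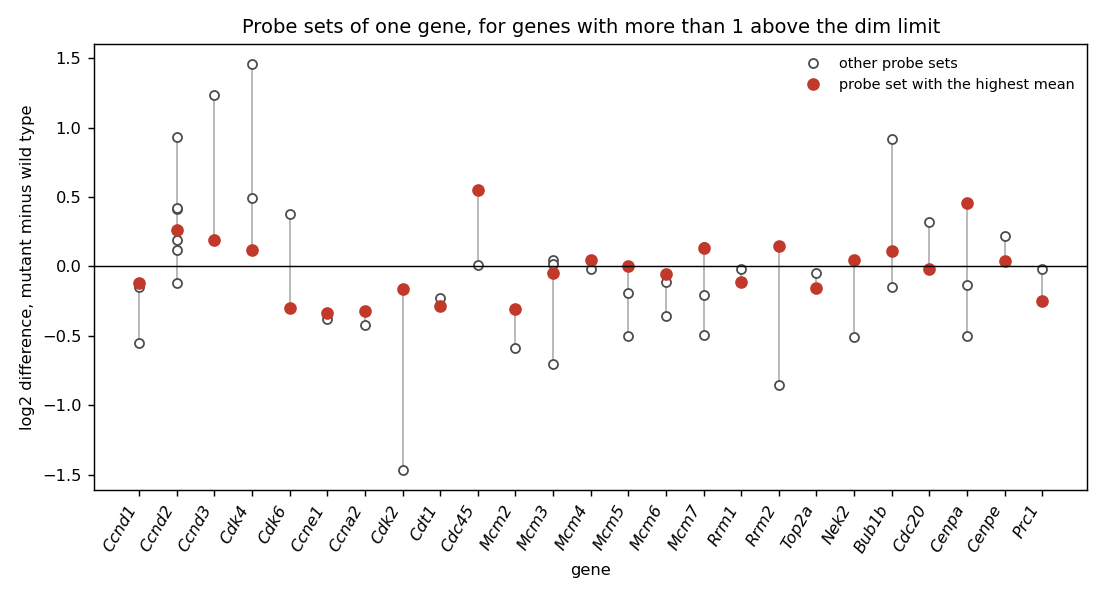
The log2 difference, mutant minus wild type (vertical axis), of each probe set above the dim limit for the 25 cell cycle genes with more than 1 (horizontal axis), the brightest in red and the others as open circles. The spread is widest for Cdk4, with values of 0.12, 0.49 and 1.46, and Rrm2 has values on both sides of 0.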

How the data were processed

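The authors deposited 1 linear intensity per probe set and array; no source used here says how probes were condensed, background corrected or scaled. It covered 45037 probe sets, and 5.39% of values were 0. Array medians differed by up to 0.69 on the log2 scale, so arrays were quantile normalized, values were raised to a floor of 12.56 (the 20th percentile), and log2 was taken. Differences of genes near the floor are understated. Names came from the platform annotation, in which 34945 probe sets carried 1 symbol, 932 several and 9160 none; the last 2 kinds enter no named result. The dim limit was the mean under which the lowest 40% of probe sets with 1 symbol lay. Genes whose brightest probe set lay under it (5490) were left out as dim. The genotypes were compared by limma 3.58.1 under R 4.3.3 (lmFit, then eBayes with trend). Tests were two-sided, p-values were adjusted over 12703 genes (Benjamini-Hochberg) and the threshold was 0.05. The number of arrays, 3 per group, limits the precision. The method was also run on simulated data with independent noise on each array, unlike the correlated deviations of same-numbered arrays given below. Its outcome is not given here, and no result rests on it.

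Replicate numbers are those of the labels, where nothing is said of what they mark. Deviations from the group means of same-numbered arrays correlated at 0.47, 0.18 and 0.56, all over 0.1. By this rule pair differences are given for same-numbered arrays, although mutant array 1 also went with wild-type array 2 (0.22). The main fit did not use the pairing, so the limma p-values, SEs and intervals given above are unpaired. A fit blocked on the pair was an alternative, as were other normalizations, floors, dim limits, probe set choices, variance models and left-out arrays. Genes given with a value on every array are Klf7 and 10 listed genes (Ccnd1, Ccnd2, Ccnd3, Ccna2, Cdk1, Mki67, Top2a, Pcna, Mcm2 and Stil), the 2 of smallest p in each role group, any listed gene with groups that do not overlap, and the CDK inhibitor Cdkn1b, whose values were given in full after they were seen. The cell cycle genes and all lists were chosen with earlier results of these data known.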

Additional observations from a re-analysis of the deposited data

How the results depend on the processing

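Under each of 18 alternatives to normalization, floor, dim limit, probe set choice, variance model and arrays used, limma called 0 genes and 0 cell cycle genes after adjustment. Unadjusted, 76 genes lay under p of 0.05, with Stil as the 1 cell cycle gene. The count of 76 became 157 with the replicate number as a block, which kept 1 cell cycle gene, Stil (limma unadjusted p = 0.039), and changed no call. It became 191 with no dim limit, 131 with array weights, 43 with array medians set equal and 50 with no normalization. With 1 array left out it ran from 71 to 219 (wild-type array 2 out), with 135 for wild-type array 3, and it was 123 when the arrays numbered 3 were both dropped. Stil was higher under all 18, by 0.51 to 1.43, and lost its unadjusted p under 0.05 with array medians set equal (limma unadjusted p = 0.07), with array weights (0.0598), and when mutant array 3 (0.188), wild-type array 3 (0.0676), both arrays numbered 3 (0.261) or both numbered 1 (0.0525) were dropped. The last of these was chosen after seeing the data. The median over the cell cycle genes ran from -0.22 to 0.03 when 1 array was left out, was -0.19 with array weights, -0.02 with no normalization and -0.09 with the block. Of 24 genes followed, Klf7, Ccna2, Cdk1, Pcna, Mcm2, Stil, Ccne1 and Birc5 kept their sign under all 18, and Aurka under the 17 in which it was tested (with the mean of all probe sets it was too dim). The causes were not tested. The number of arrays limits what could be seen.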
